A study of Mus musculus with 12 samples.

Results

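The transcripts described here are those of the adipokines, the hormones and proteins that fat cells secrete, with the receptors of adiponectin and 2 markers of the fat cell itself. They were chosen as every probe set that the platform annotation assigns to exactly 1 of 8 listed genes: Adipoq, Retn, Cfd, Lep, Fabp4, Adipor1, Adipor2 and Pparg. 13 probe sets of 7 of these genes were found among 45037 probe sets and 18193 named genes, and Cfd was not analysed here. The material was gastrocnemius, the main muscle of the calf, of 12 male mice of generation 37 from lines bred for high voluntary wheel running, aged 84 days on average and 79 to 86 days in all. 6 arrays came from mini-muscle mice of line 3, which inherit small hindlimb muscles, with the left and right muscle of each animal pooled. The other 6 came from regular-muscle mice of line 8, with the left or right muscle of each animal. Both lines had been selected for running, and no unselected line is among these arrays. Each group is a single line, so phenotype, line and the pooling of limbs cannot be told apart in any difference below.

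White fat cells lie between the fibres and bundles of a muscle, and their transcripts enter the RNA of a whole muscle. Adiponectin (Adipoq), resistin (Retn) and leptin (Lep) are secreted by fat cells in mice, and Pparg encodes PPAR-gamma, the nuclear receptor that drives fat cell differentiation. Fabp4 carries fatty acids inside fat cells and is also made by capillary endothelium and macrophages. The receptors Adipor1 and Adipor2 bind adiponectin on the target cell, and muscle fibres themselves express them. In RNA of a whole muscle, fewer cells of a type and less RNA per cell cannot be told apart.

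Values are log2 of the MAS5 intensity that the authors deposited, each array being scaled to a common target. Differences are mini-muscle minus regular-muscle, n = 6 arrays a group, tested with limma and adjusted by Benjamini and Hochberg over all 45037 probe sets. A probe set is called changed at an adjusted p under 0.05. Array medians lay between 211.9 and 275.2 intensity units, and correlations between arrays were 0.852 to 0.878 within a group and 0.838 to 0.869 between groups. Muscle identity was plain on every array: the mean log2 intensity of 12 skeletal muscle fibre genes was 16.60 to 16.90 in mini-muscle and 16.79 to 17.07 in regular muscle. The table's median probe set had a mean of 7.62, and 11 of the 13 probe sets lay above it. Lep and Pparg lay below.

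Of the adipokine, adipocyte and receptor transcripts, a single probe set passed the test. 1 of the 13 probe sets was called, a share of 7.69%, against 7.12% of all probe sets, of which 3.87% were higher and 3.25% lower in mini-muscle. It was 1 of the 3 probe sets of Adipor1, lower in mini-muscle, and the share called lay near that of all probe sets. That share covers bright and dim probe sets alike, whereas most of the 13 were bright. Bright ones were called more often: 15.8% of the brightest probe sets of genes above the table median, against 10.4% of those of all genes. The members without a call include wide intervals (Lep and Pparg), so a missed threshold does not show that a transcript was alike in both groups. At an unadjusted p under 0.05 the count was 4 of 13 (Adipor1 with 2 probe sets, Retn and Fabp4), against 17.4% of all probe sets. For 0 of the 13 did the groups fail to overlap, against 4.66% of all. The median difference was -0.09 over the 13 and -0.00485 over all probe sets.

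**Figure D1:**
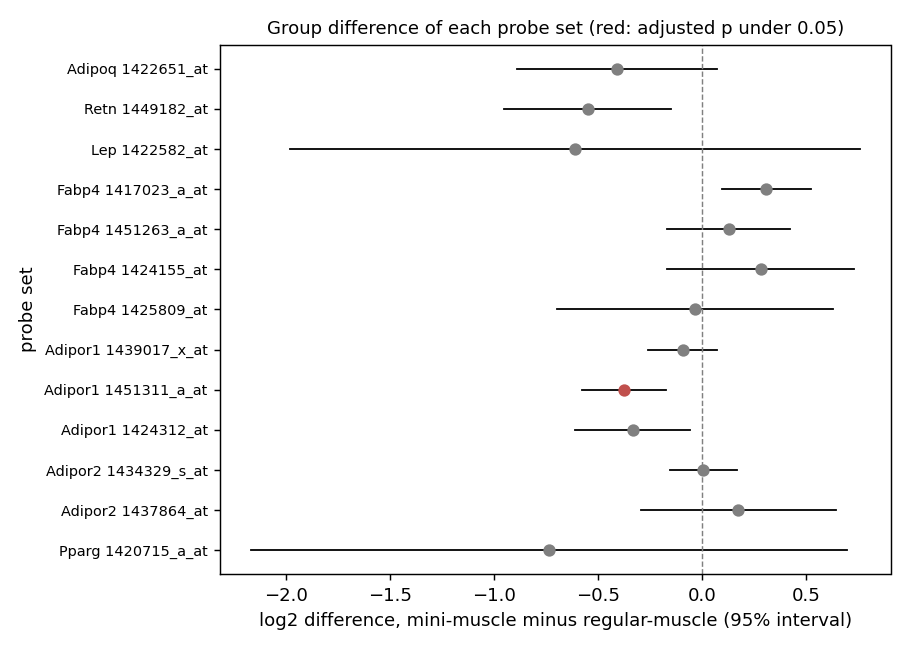
Difference of each of the 13 probe sets on the log2 scale, mini-muscle minus regular-muscle (x axis), with the 95% interval of the limma fit as a line. The red point is Adipor1 1451311_a_at at -0.38, and the intervals of the dim Lep and Pparg probe sets are the widest of the 13.

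4 promoters are shown because their genes carry the results below, the 3 secreted adipokines and the receptor with the called probe set. Each is the stretch of 250 bases before the annotated start in the RefSeq promoter table (build GRCm38.p6), on the strand of the gene, with the matches of 5 motifs on either strand in capitals.
Adipoq chr16:23146286-23146535 (+): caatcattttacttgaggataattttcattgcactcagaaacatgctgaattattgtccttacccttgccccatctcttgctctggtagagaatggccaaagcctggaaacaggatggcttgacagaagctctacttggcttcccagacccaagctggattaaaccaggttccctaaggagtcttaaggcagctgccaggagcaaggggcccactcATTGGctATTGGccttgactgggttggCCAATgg
Retn chr8:3655520-3655769 (+): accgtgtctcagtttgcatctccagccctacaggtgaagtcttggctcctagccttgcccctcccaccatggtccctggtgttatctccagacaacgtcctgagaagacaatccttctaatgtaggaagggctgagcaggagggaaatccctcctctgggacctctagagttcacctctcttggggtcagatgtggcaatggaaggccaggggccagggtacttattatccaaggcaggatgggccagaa
Lep chr6:29059971-29060220 (+): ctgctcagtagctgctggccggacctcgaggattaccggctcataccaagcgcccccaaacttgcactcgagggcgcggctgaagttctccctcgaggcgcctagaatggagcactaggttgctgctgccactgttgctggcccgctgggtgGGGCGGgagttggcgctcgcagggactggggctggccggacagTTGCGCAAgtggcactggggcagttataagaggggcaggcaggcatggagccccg
Adipor1 chr1:134415128-134415377 (+), the upstream of 2 listed starts: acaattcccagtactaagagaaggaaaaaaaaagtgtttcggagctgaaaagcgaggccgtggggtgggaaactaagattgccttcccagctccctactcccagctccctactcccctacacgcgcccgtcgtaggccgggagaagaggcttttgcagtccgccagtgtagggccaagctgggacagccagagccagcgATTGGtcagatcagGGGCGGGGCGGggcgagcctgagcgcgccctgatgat
The motifs were the TATA box as TATAAA, the box named for its letters CCAAT, the GC box as GGGCGG, the core site of nuclear receptors such as PPAR-gamma as AGGTCA, and a C/EBP palindrome as TTGCGCAA. All were searched on both strands with overlaps counted. The Adipoq window held 3 matches of CCAAT, found in 33.8% of 32851 promoters of the table, and no CpG. The Lep window held 1 match of TTGCGCAA, 55 bases before the start, which 0.164% of promoters hold, and 1 match of GGGCGG (32.7% of promoters). The Adipor1 window held 1 CCAAT and 2 overlapping GGGCGG, 15 CpG and 59.6% G and C. The Retn window held none of the 5 motifs, and none of the 4 windows held TATAAA (12.4% of promoters) or AGGTCA (14.0%). The matches describe these letters only and do not show that a factor binds there.

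Adipoq, whose protein is the most abundant hormone of fat cells, did not pass the test, and 2 arrays of mini-muscle stood low. Its single probe set, 1422651_at, brighter than 90.6% of all probe sets, ran from 10.19 through a median of 11.36 to 11.61 on mini-muscle arrays, against 11.09, 11.39 and 12.18 on regular-muscle arrays. The mini-muscle group divided: replicates 2 and 5 lay at 10.43 and 10.19, below every regular-muscle array, and the other 4 at 11.32 to 11.61, within the regular-muscle range. The means were 11.09 ± 0.62 in mini-muscle and 11.50 ± 0.39 in regular muscle (SD, n = 6 each). The difference of -0.41 (SE 0.23, 95% interval -0.89 to 0.07) was not called (limma adjusted p = 0.40). An exact two-sided permutation test over the 924 assignments of the arrays gave p = 0.23. A fold between 0.539 and 1.05 of regular muscle lies within the interval.

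Retn, resistin, a secreted protein of mouse white fat, had the lower values more evenly. Probe set 1449182_at ran from 8.79 through 9.54 to 10.03 on mini-muscle arrays, against 9.73, 10.13 and 10.33 on regular-muscle arrays. All 6 mini-muscle arrays lay below the regular-muscle median, and 4 of them below every regular-muscle array. The means were 9.54 ± 0.46 and 10.09 ± 0.22 (SD) in mini-muscle and regular muscle, a difference of -0.55 (SE 0.19, 95% interval -0.95 to -0.15). It missed the threshold over all probe sets (limma adjusted p = 0.10, exact permutation p = 0.022 unadjusted). Among the 9097 genes tested by their brightest probe set above the gene median, where 26.7% were called, the same difference passed (limma adjusted p = 0.036).

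Lep, the satiety hormone leptin, was dim and the most uneven of the members in mini-muscle. Its probe set 1422582_at was brighter than only 31.3% of all probe sets. Mini-muscle replicates 1, 3 and 6 read 7.68, 7.47 and 7.67, and replicates 2, 4 and 5 read 5.14, 4.89 and 4.47. The regular-muscle arrays lay between these at 6.41 to 7.50, with a median of 6.75, and overlapped only the mini-muscle array at 7.47. The SD was 1.54 in mini-muscle and 0.39 in regular muscle. The difference of -0.61 (SE 0.66, 95% interval -1.98 to 0.76) was not called (limma adjusted p = 0.73, exact permutation p = 0.34). No detection call is among the values used here, so whether the low readings stand above background was not tested.

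Pparg, the regulator of fat cell differentiation, was dimmer still and scattered in both groups. Probe set 1420715_a_at ran from 4.55 through 5.35 to 7.36 on mini-muscle arrays, against 4.91, 6.43 and 8.21 on regular-muscle arrays. The groups overlapped over most of their range. The difference of -0.74 had an SE of 0.68 and a 95% interval of -2.17 to 0.70 (limma adjusted p = 0.68), an interval that includes a fold of 0.222 as well as 1.62.

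Fabp4 pointed the other way at its brightest probe set and was among the brightest transcripts of the muscle. Probe set 1417023_a_at, brighter than 99.3% of all probe sets, ran from 14.95 through 15.24 to 15.48 on mini-muscle arrays, against 14.69, 14.96 and 15.21 on regular-muscle arrays. 3 mini-muscle arrays lay above every regular-muscle array. The means were 15.24 ± 0.20 and 14.94 ± 0.21 (SD) in mini-muscle and regular muscle, and the difference of 0.31 (SE 0.10, 95% interval 0.09 to 0.52) was not called over all probe sets (limma adjusted p = 0.085, exact permutation p = 0.032 unadjusted). It passed among the 9097 brightest probe sets of genes (limma adjusted p = 0.031), and over all probe sets without mini-muscle replicate 2 (0.035) or without regular-muscle replicate 5 (0.041). The other probe sets of Fabp4 differed by 0.13 (1451263_a_at), 0.28 (1424155_at) and -0.03 (1425809_at), all with an adjusted p of 0.59 or more and groups that overlapped. Of 11 markers of endothelium, which also makes Fabp4, 0 were called over all probe sets, and 1 was called higher among the 9097 brightest probe sets of genes, the setting in which Fabp4 passed, and also over all probe sets without regular-muscle replicate 1. They had a median difference of 0.12 and a mean log2 intensity of 9.92 to 10.33 in mini-muscle and 9.62 to 10.25 in regular muscle. Of 8 macrophage markers 1 was called over all probe sets and 3 among the 9097, all lower, and their mean was 8.35 to 8.95 in mini-muscle and 8.64 to 9.26 in regular muscle. The part of either cell type in the Fabp4 values was not tested.

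**Figure D2:**
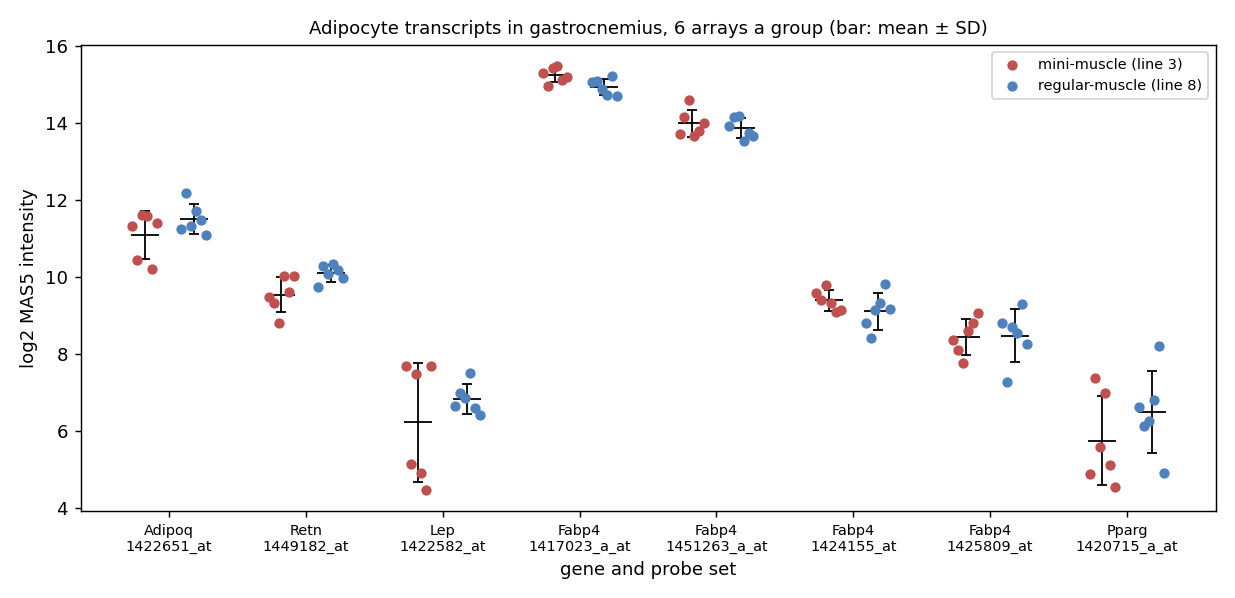
Log2 MAS5 intensity (y axis) of each probe set of Adipoq, Retn, Lep, Fabp4 and Pparg (x axis), 1 point for each array, with mini-muscle left of regular muscle and bars for mean ± SD. Adipoq replicates 2 and 5 of mini-muscle sit apart at 10.43 and 10.19, the Lep points of mini-muscle fall into a low and a high trio, and each pair of groups overlaps.

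Ratios of 2 members on the same array, which do not depend on how an array is scaled, are given as descriptions with no test. These 5 ratios were chosen after the single values had been seen, so they restate those values and add no independent support. The log2 ratio of Fabp4 (1417023_a_at) to Adipoq was 4.15 ± 0.46 in mini-muscle and 3.44 ± 0.38 in regular muscle (SD, n = 6 each). The difference was 0.72, and 5 of 6 mini-muscle arrays lay above every regular-muscle array. The ratio of Retn to Adipoq was -1.55 ± 0.76 in mini-muscle and -1.41 ± 0.28 in regular muscle, a difference of -0.14 with groups that overlapped.

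Adipor1 held the only called probe set. Adipor1, the adiponectin receptor that prevails in skeletal muscle, acts through AMP-activated protein kinase. Probe set 1451311_a_at ran from 12.41 through 12.84 to 12.96 on mini-muscle arrays, against 12.95, 13.19 and 13.35 on regular-muscle arrays. 5 of 6 mini-muscle arrays lay below every regular-muscle array, and the sixth, replicate 3, overlapped only the lowest of them. The means were 12.78 ± 0.20 in mini-muscle and 13.16 ± 0.16 in regular muscle (SD, n = 6 each). The difference was -0.38 (SE 0.10, 95% interval -0.58 to -0.17), or 1.30-fold lower in mini-muscle (limma adjusted p = 0.019, exact permutation p = 0.0043). The call was lost without regular-muscle replicate 2 (limma adjusted p = 0.053, difference -0.35) and without replicate 6 (adjusted p = 0.052, difference -0.34), with median-centred arrays (adjusted p = 0.16, difference -0.36) and with a variance without intensity trend (adjusted p = 0.19).

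The other probe sets of Adipor1 were unequal. Probe set 1424312_at had 9.95, 10.16 and 10.62 as lowest, median and highest value in mini-muscle, against 10.37, 10.54 and 10.83 in regular muscle. 5 of 6 mini-muscle arrays lay below every regular-muscle array here too, and the difference of -0.34 (SE 0.13) missed the threshold (limma adjusted p = 0.16), though it passed at -0.42 without mini-muscle replicate 3. The brightest, 1439017_x_at, ran from 13.27 through 13.45 to 13.68 in mini-muscle, against 13.48, 13.55 and 13.63 in regular muscle, and differed by -0.09 (SE 0.08, 95% interval -0.26 to 0.07, limma adjusted p = 0.64). Its mini-muscle arrays lay on both sides of the narrow regular-muscle range. The suffix _x marks a probe set that may share probe sequence with other transcripts, so the 3 readings of Adipor1 need not measure the same RNA.

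Adipor2, the receptor that prevails in liver, did not pass with either probe set. Probe set 1434329_s_at ran from 12.57 through 12.65 to 12.88 in mini-muscle, against 12.53, 12.69 and 12.83 in regular muscle. The difference was 0.0044 (SE 0.08), and its 95% interval of -0.16 to 0.16 holds folds of 0.897 to 1.12 (limma adjusted p = 0.99). The suffix _s of 1434329_s_at also marks probe sequence that may be shared with other transcripts. The dimmer 1437864_at differed by 0.17 (SE 0.22, limma adjusted p = 0.79). The ratios of Adipor1 to Adipor2 (1434329_s_at) on the same array repeat the Adipor1 differences, since Adipor2 differed by so little. The log2 ratio for 1451311_a_at was 0.10 ± 0.22 in mini-muscle and 0.48 ± 0.17 in regular muscle, a difference of -0.38. For 1424312_at the difference was -0.34, and for 1439017_x_at it was -0.10. In each of the first 2 ratios 5 of 6 mini-muscle arrays lay below every regular-muscle array.

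**Figure D3:**
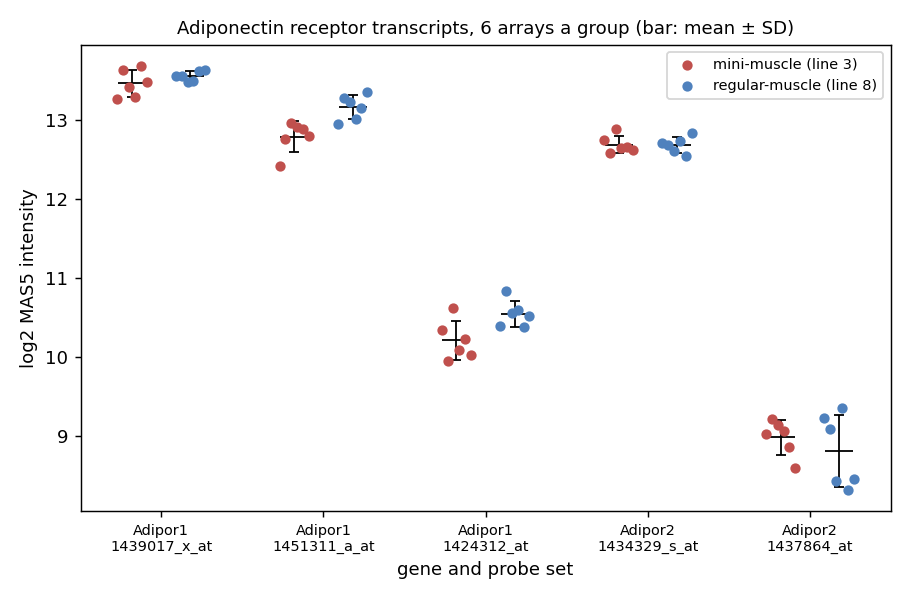
Log2 MAS5 intensity (y axis) of the 3 probe sets of Adipor1 and the 2 of Adipor2 (x axis), 1 point for each array, with mini-muscle left of regular muscle and bars for mean ± SD. Mini-muscle sits lower at Adipor1 1451311_a_at (12.41 to 12.96 against 12.95 to 13.35) and at 1424312_at, and the groups lie level at Adipor2 1434329_s_at.

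The adipokines were also followed from array to array within each group. Correlations of Retn, Lep, Fabp4 and Pparg (brightest probe sets) with Adipoq were computed apart in the 6 mini-muscle and the 6 regular-muscle arrays, which makes 8 relations, each with an exact permutation p over 720 pairings. After adjustment 0 of the 8 passed, and 1 had an unadjusted p under 0.05. That was Fabp4 in mini-muscle (Pearson r = 0.84, exact permutation p = 0.039, adjusted p = 0.31, Spearman rho = 0.83, exact permutation p = 0.058, adjusted p = 0.23). Without the 2 arrays farthest from the Adipoq median its r was 0.81, and in regular muscle r was 0.32 (exact permutation p = 0.55, adjusted p = 0.88). These Fabp4 values are of 1417023_a_at alone. The other Fabp4 probe sets were not correlated with Adipoq singly, so the relation is not shown for the gene as a whole. Retn in regular muscle had r = 0.73 (exact permutation p = 0.093, adjusted p = 0.37) and rho = 0.89 (exact permutation p = 0.033, adjusted p = 0.23), with r = 0.61 without those 2 arrays, whereas in mini-muscle r was 0.042. For Lep r was 0.65 in mini-muscle and 0.61 in regular muscle (exact permutation adjusted p = 0.51 for both), and the mini-muscle value turned to -0.56 without the 2 farthest arrays, so it rests on them. Pparg had r = -0.16 in mini-muscle and 0.20 in regular muscle (exact permutation adjusted p = 0.92 for both).

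The genes most like Adipoq were found by the Pearson r of their deviations from the group means over all 12 arrays, among 11648 genes whose brightest probe set lay above the table median. The median r was -0.00286, 5% of genes exceeded 0.53, and 19 exceeded 0.8. The first 10 were Ifi27l2a, an interferon-inducible gene (0.90), Cyp2e1, a cytochrome P450 (0.90), Smoc1, a secreted calcium-binding matrix protein (0.90), Gng10, a G protein gamma subunit (0.90), Yae1d1 (0.86), Trmu, a tRNA-modifying enzyme (0.86), Dld, the dihydrolipoamide dehydrogenase of mitochondrial complexes (0.85), Il33, a cytokine (0.85), Actr6, an actin-related protein (0.85), and Cdadc1 (0.84). Cidec, a lipid droplet protein of fat cells, had r = 0.82, with 6.33 in mini-muscle replicate 5, 7.71 in replicate 2 and 8.19 to 8.52 in the rest of that group. The 2 mini-muscle arrays low for Adipoq were thus also the lowest of their group for Cidec. They were the lowest for each of the 10 genes too, but those were picked by r with Adipoq on these same arrays. For the 10 genes this order therefore follows largely from the choice and adds no support. By the same measure r was 0.61 for Fabp4 and Lep, 0.20 for Retn and -0.02 for Pparg (brightest probe sets). Among the receptors it was 0.24 for Adipor2 and -0.72 for Adipor1 (brightest probe sets). For Adipor1 that is 1439017_x_at alone, and for Fabp4 1417023_a_at alone. No r was computed by this measure for their other probe sets, so these values do not describe the genes as a whole. These r values are descriptions over 12 arrays that share their scaling. The 10 genes were picked as the highest of 11648, and the r that unrelated genes would reach was not computed. A place among them therefore does not show a link with Adipoq. Among these 11 genes Cyp2e1 and Yae1d1 were called between the groups. Cyp2e1 lay at 10.73 to 11.60 in mini-muscle and 11.69 to 12.50 in regular muscle, with no overlap (difference -0.72, SE 0.16, limma adjusted p = 0.0072), and Yae1d1 differed by -0.55 (SE 0.14, limma adjusted p = 0.018, lost without regular-muscle replicate 2, adjusted p = 0.055). Cidec itself differed by 0.10 (limma adjusted p = 0.94).

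**Figure D4:**
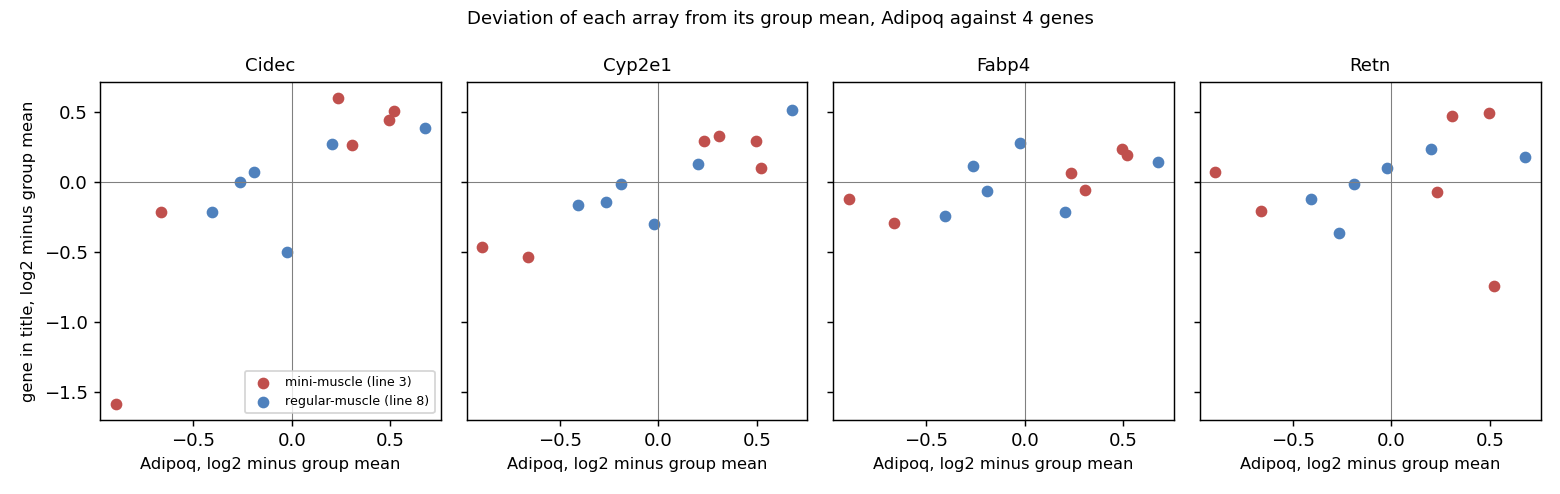
Deviation of each array from its group mean on the log2 scale, with Adipoq on the x axis and Cidec, Cyp2e1, Fabp4 or Retn on the y axis, red points for mini-muscle and blue for regular muscle. Cidec (r = 0.82 over 12 arrays) and Cyp2e1 (0.90) run with Adipoq, and Retn of mini-muscle (r = 0.042) is scattered.

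Other genes of fat tissue and of adipokine signalling were read as lists, by the brightest probe set of each gene. Markers of endothelium, macrophages, fibroblasts, nerve, blood and muscle fibres were read in the same way, and the counts of this paragraph include them. Of the 173 distinct genes of 17 lists, 39 were called, 18 higher and 21 lower in mini-muscle, a share of 22.5%, against 10.4% of the brightest probe sets of all genes. Bright probe sets were called more often: all 39 lay among the 147 list genes above the table median, a share of 26.5%, against 15.8% of all 11649 such genes. No test was made of these shares. The lists were chosen with earlier results of these data known, so the shares do not show that listed genes changed more often than others. The median difference over the list genes was -0.02 and over all genes 0.02.

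Of 16 measured genes of lipid storage in mature fat cells 6 rose, 2 fell and 8 were not called, with a median of 0.17. Dgat2, which makes triglyceride, averaged 12.22 in mini-muscle and 11.29 in regular muscle (1.91-fold, limma adjusted p = 2.1e-04). Cd36, the fatty acid transporter, averaged 13.77 in mini-muscle and 12.94 in regular muscle (1.78-fold, limma adjusted p = 5.8e-04). Gpd1, the cytosolic glycerol phosphate dehydrogenase, fell by 0.83 (limma adjusted p = 0.0030). The other fall, named after its value was seen, was Car3, a carbonic anhydrase of fat and slow muscle, at -0.25. The median r with Adipoq over the 15 genes of this list above the table median was 0.37, with a range of -0.26 to 0.82, against a median of -0.00286 over the genes compared above. Genes of this list, and of the adipocyte signalling and identity list below, need not be made by fat cells alone. Which cells made the called transcripts was not tested, so the rises do not show a change in fat cells. Plin1, the main lipid droplet coat protein of fat cells, was not analysed here.

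Of 10 genes of fatty acid synthesis 3 fell, 1 rose and 6 were not called, with a median of -0.30, and of -0.14 over the 9 above the table median. Srebf1, the sterol regulatory factor that turns on lipogenic genes, averaged 10.54 in mini-muscle and 11.89 in regular muscle (difference -1.35, SE 0.12, limma adjusted p = 5.2e-07). Me1, malic enzyme, averaged 11.44 in mini-muscle and 12.68 in regular muscle (difference -1.24, SE 0.11, limma adjusted p = 3.5e-07). Mlxipl, the carbohydrate-responsive factor ChREBP, rose by 0.49 (limma adjusted p = 0.0072). Of 12 genes of adipocyte signalling and identity 4 rose and 0 fell (median 0.38), among them Npr3, the clearance receptor of natriuretic peptides (0.95, adjusted p = 0.0078), Cebpa, a partner of PPAR-gamma in adipogenesis (0.94, limma adjusted p = 0.014), and Cavin1, a caveolar coat protein (0.48, adjusted p = 0.0049). Among 8 brown fat markers 0 were called (median 0.32), and 5 of the 8 lay below the table median. Over the 3 brown fat markers above it the median was 0.018. Among 16 genes listed as other adipokines 0 were called as well (median 0.16, and 0.06 over the 12 above the table median). That list also holds Pard3, a cell polarity gene that is not an adipokine (difference -0.03, limma adjusted p = 0.95).

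Of 12 measured paralogs of adiponectin, the C1q and tumour necrosis factor related family, 1 fell and 0 rose. It was C1qc, a chain of complement C1q made by macrophages (difference -1.27, SE 0.36, limma adjusted p = 0.033), a call lost under 8 of 20 alternatives. In adiponectin secretion and signalling 1 of 14 genes rose and 3 fell (median 0.0054). Erp44, the chaperone that retains adiponectin in the secretory pathway, differed by -0.54 (limma adjusted p = 0.0012), Prkaa2, the catalytic subunit of AMP-activated kinase in muscle, by -0.43 (adjusted p = 7.7e-04), and Acacb, the acetyl-CoA carboxylase that this kinase inhibits, by 0.53 (adjusted p = 0.0038). Cdh13, T-cadherin, which binds adiponectin on the cell surface, averaged 11.74 in mini-muscle and 11.54 in regular muscle (difference 0.20, limma adjusted p = 0.35). In leptin signalling 1 of 10 genes rose and 1 fell. Jak2, the kinase bound to the leptin receptor, averaged 10.64 in mini-muscle and 11.61 in regular muscle (difference -0.97, SE 0.11, limma adjusted p = 1.0e-05), while Stat3, its transcription factor, rose by 0.56 (adjusted p = 0.041, lost under 11 of 21 alternatives). The receptor Lepr lay just below the table median and differed by -0.69 (SE 0.41, limma adjusted p = 0.43).

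Partners of PPAR-gamma and early adipogenic factors moved both ways, with 2 of 16 higher and 2 lower (median 0.0034). Klf5, a Krueppel-like factor of early adipogenesis, rose by 1.19 (limma adjusted p = 8.1e-04), Rxrg, a retinoid X receptor and dimer partner, fell by 0.93 (adjusted p = 5.3e-05) and Ncoa1, a coactivator, fell by 0.64 (adjusted p = 0.0011). Of 7 genes of the alternative complement pathway 1 fell, the inhibitor Cd55 (-0.44, limma adjusted p = 0.038, lost under 9 of 21 alternatives). Of the 6 other fatty acid-binding proteins 1 rose, Fabp3 of muscle fibres (0.66, limma adjusted p = 0.029, lost under 10 of 21 alternatives).

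Among markers of other cells in the muscle, the fibroblast and fibro-adipogenic progenitor list, which holds the precursors of fat cells in muscle, had 3 of 8 genes lower and 0 higher (median -0.55). They were the matrix genes Col1a1 (-1.42, limma adjusted p = 2.6e-05), Dcn (-0.85) and Col3a1 (-0.71). The surface and progenitor markers, named after their values were seen, were not called: Pi16 differed by -0.64, Pdgfra by -0.45, Dpp4 by 0.34, Pdgfrb by 0.09 and Cd34 by 0.07 (limma adjusted p = 0.21 or more). The mean of the list was 10.61 to 10.96 in mini-muscle and 10.92 to 11.46 in regular muscle. The called macrophage marker was Mrc1, the mannose receptor (-0.77, limma adjusted p = 0.013). Of 4 nerve and 4 blood cell markers 0 were called, with medians of -0.16 and -0.55. Only 1 of the 4 blood cell markers lay above the table median, so their median rests mostly on dim probe sets. The 12 fibre markers held 2 higher and 4 lower genes, among them Myh4 (-1.33), Des (0.85) and Casq1 (-0.41). The part of these cells in the adipokine values was not tested.

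**Figure D5:**
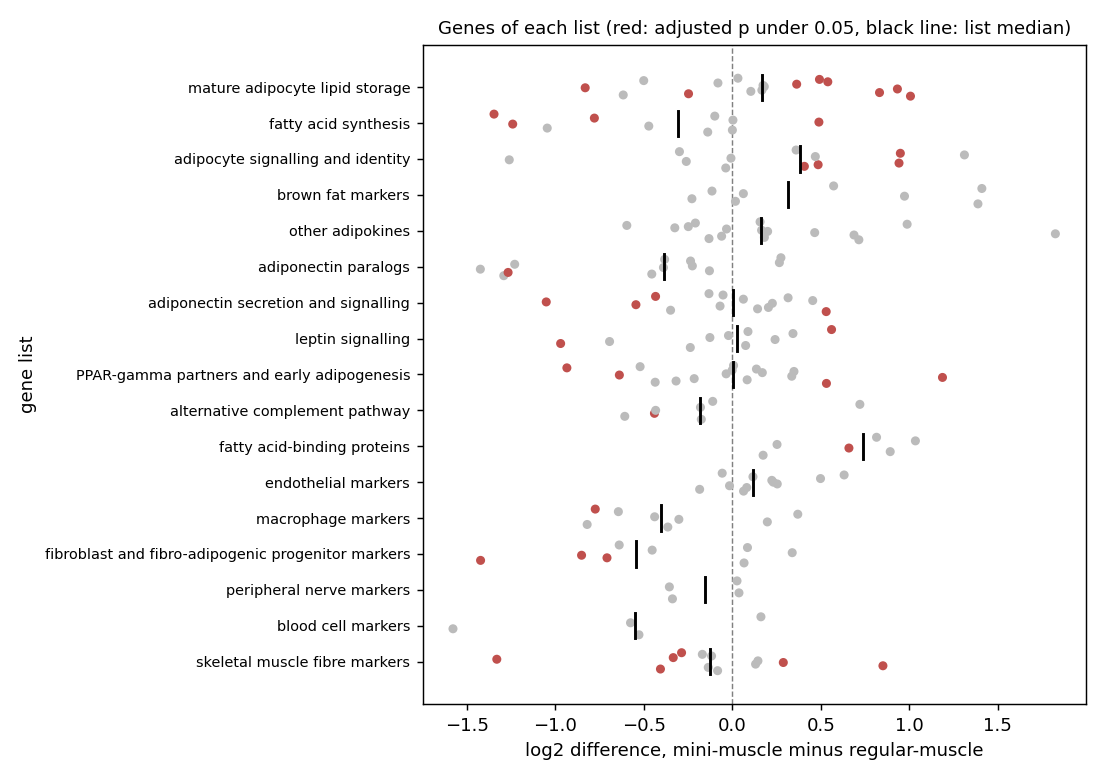
Log2 difference, mini-muscle minus regular-muscle (x axis), of every measured gene of the 17 lists (y axis), red where the limma adjusted p is under 0.05, with a black line at the median of each list. The medians are 0.17 for lipid storage, -0.30 for fatty acid synthesis and -0.55 for fibroblast and progenitor markers, each with genes on both sides of 0.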

How the data were processed

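Per the submitters' processing notes, the deposited intensity values were made with MAS5, which gives 1 signal per probe set and array. The sources used here do not give its version or parameters, and neither detection calls nor scanner data were used. The mean of each array without the lowest and highest 2% of its 45101 probe sets was 800.0. Per the labels' protocols, 5 µg of total RNA was labelled per array. Intensities were taken to log2 with no offset, 64 control probe sets were left out, and group means were compared by limma 3.58.1 (R 4.3.3; lmFit, eBayes with intensity trend, two-sided), adjusted by Benjamini-Hochberg. All probe sets were kept, because a filter on low values keeps a gene that is high in only 1 group. Arrays have no read depth, so their number limits the precision.

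Genes were named from the platform annotation (34945 probe sets of a single gene), and list symbols were matched through a RefSeq table (GRCm38.p6). The text names all members, the 10 genes most like Adipoq, up to 3 called genes of each list and 4 fixed genes. Members and lists were chosen with earlier results of these data known. On simulated data of 45037 probe sets with 200 changed, 26% of 2-fold and 13% of 1.5-fold changes were called, with 1 false call among 40. Above the table median 47.3% of 2-fold changes were called. The simulation gave 40 calls and the data 3208, so the adjusted threshold was stricter in the simulation and its shares do not carry over. A missed threshold still does not show that a transcript was alike in both groups. The alternatives were other scalings, offsets, filters and variance models, array weights and leaving out each array.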

Additional observations from a re-analysis of the deposited data

How the results depend on the processing

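Against 3208 calls over all probe sets, median-centred arrays gave 2085, a variance without trend 1424, and leaving out 1 array 2704 to 3147. Of the 13 adipokine and receptor probe sets, 1 was called as reported, 0 with median-centred arrays, 0 without the trend and 2 (Retn and Fabp4) among the brightest probe sets of genes, a setting that leaves out Adipor1 1451311_a_at. Leaving out 1 array gave 0 to 2 calls and 0 to 2 probe sets whose groups did not overlap. Over those cases Adipor1 1451311_a_at kept its direction in all 12 and its call in 10. Of the list genes 39 were called, 15 without the trend and 33 to 39 without 1 array. With median-centred arrays 1 of the 8 relations with Adipoq passed, Fabp4 by 1417023_a_at alone in mini-muscle (r = 0.85, exact permutation adjusted p = 0.033).

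Signs of some group differences near 0 turned. Fabp4 1425809_at was 0.057 with array weights and -0.28 to 0.13 without 1 array. Gng10 was 0.0011 with median-centred arrays and -0.0681 to 0.0706 without 1 array. Without 1 array Adipor2 1434329_s_at ran from -0.0339 to 0.0338, Actr6 from -0.0472 to 0.17, Cidec from -0.0149 to 0.42, and the Retn to Adipoq ratio from -0.33 to 0.11. Correlations turned as well, some of them from values farther from 0. Without the 2 arrays farthest from the Adipoq median, r of Lep in mini-muscle turned from 0.65 to -0.56. In the same setting and group r turned from 0.042 to -0.29 for Retn and from -0.16 to 0.75 for Pparg. With the mean of all probe sets r of Fabp4 in regular muscle turned from 0.32 to -0.47. The cause was not tested. Calls of Stat3, Fabp3, Cd55 and C1qc were lost under 11, 10, 9 and 8 of their alternatives, and that of Yae1d1 with median-centred arrays, without the trend and without regular-muscle replicate 2. Without the trend the calls of Acacb, Cavin1, Casq1, Cebpa, Col3a1, Cyp2e1, Gpd1, Mlxipl, Mrc1 and Prkaa2 were lost too, and that of Casq1 also with median-centred arrays. No paired analysis was possible because the numbers of the replicates follow accession order and pair no animals. The limits are 6 arrays a group, 1 line a group, no detection calls and dim Lep and Pparg.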
